A study of Mus musculus with 3 samples.

Results

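Interferon response genes were followed across 3 sorted populations of mouse bone cells. The set was a named list of 51 genes: sensors of foreign nucleic acid, interferon receptors, transcription factors and the antiviral effectors that interferon switches on. Members were found by gene symbol, and 49 of the 51 had at least 1 probe set (a group of short probes for the same transcript) that carried their symbol alone, out of 18193 genes on the array. Those 49 genes were read by 83 probe sets, with 1 probe set for 27 genes and several for 22. Ifi44 is not analysed here, and the Isg15 symbol stood only on a probe set shared with Gm9706.

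Endosteal cells, which line the inner surface of bone, were released with collagenase from femur and tibia fragments of C57BL/6 mice. No genetic change or treatment is named for any group. All 3 groups were gated as negative for CD45 (blood cells), CD31 (endothelium) and Ter119 (erythroid cells), then sorted by PDGFRα, a growth factor receptor of mesenchymal cells, and Sca-1, a surface protein long used to sort stem and progenitor cells. The groups were PDGFRa(+) Sca-1(+), called double-positive cells from here on, PDGFRa(+) Sca-1(-), called PDGFRα-only cells, and PDGFRa(-) Sca-1(-), called double-negative cells. In the plots each group carries a plus or minus sign after each of its markers. Each group had 1 array, and the labels give neither the age of the mice nor how many were behind an array, so no difference below has a replicate check and no test was run.

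Interferons are secreted proteins that warn cells of viral infection. Type I interferons bind the receptor pair encoded by Ifnar1 and Ifnar2, and interferon gamma binds the pair encoded by Ifngr1 and Ifngr2. The receptors act through JAK kinases and STAT proteins, which with IRF factors bind short promoter sequences, the interferon-stimulated response element (ISRE) and the gamma-activated site (GAS), and raise the transcription of many antiviral genes. Sca-1 itself is known as a protein that interferon can raise on mouse blood cells. The gene encoding it is not analysed here.

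Values are array signals, intensities on a linear scale without unit. A signal of 93.2, the mean of the 3 array medians, served as a floor. A gene under the floor on 1 array of a pair has only a bound ("at least"), and a gene under it on both was not compared. A gene was called higher or lower at a ratio of 2-fold or more.

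The gates were checked first. Pdgfra had a signal of 12846 in double-positive cells, 2420.4 in PDGFRα-only cells and 586 in double-negative cells. Ptprc, which encodes CD45, lay under the floor on all 3 arrays, with signals of 74.1, 51.9 and 31.7 in the same order of groups, and so did Pecam1, which encodes CD31. The labelled cell type was mixed by its markers: the cartilage gene Col2a1 gave 4096 in double-positive cells, 26563 in PDGFRα-only cells and 27518 in double-negative cells, and the osteoblast gene Alpl gave 356 in double-positive cells, 15795 in PDGFRα-only cells and 5122 in double-negative cells. The signal ratio of the 3' to the 5' control probe set of Actb, a sign of RNA integrity and of the labelling, was 4.65 on the double-positive array, 2.63 on the PDGFRα-only array and 2.99 on the double-negative array. Its part in the results was not tested.

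Most interferon response genes were brightest in double-positive cells. Of 45 members that exceeded the floor somewhere, 35 had their highest signal there, 8 in PDGFRα-only cells and 2 in double-negative cells. Double-positive cells were the brightest group for 77.8% of these members and for 42.1% of all 12211 genes above the floor. In 22 of the 45 members the double-positive signal was at least 2-fold above both other arrays, a step that 10.6% of all genes took. The remaining members were within 2-fold of another array or ran the other way, and Isg20, which encodes an RNA-degrading enzyme, was the only member at least 2-fold below both other arrays in double-positive cells, against 6.96% of all genes. In PDGFRα-only cells 1 member, Samhd1 by its brightest probe set, was at least 2-fold above both others (2.46% of all genes) and 0 were below both (1.3%). In double-negative cells 0 members were above both others (3.19% of all genes), and Gbp2, Ifitm3 and Irf1 were below both (1.57%). The other 4 members, Dhx58, Oas3, Irf2 and Mx1, were under the floor on all 3 arrays, with highest signals between 64.4 and 75.8. In sorted bulk cells, fewer cells of a type and less RNA per cell cannot be told apart.

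**Figure D1:**
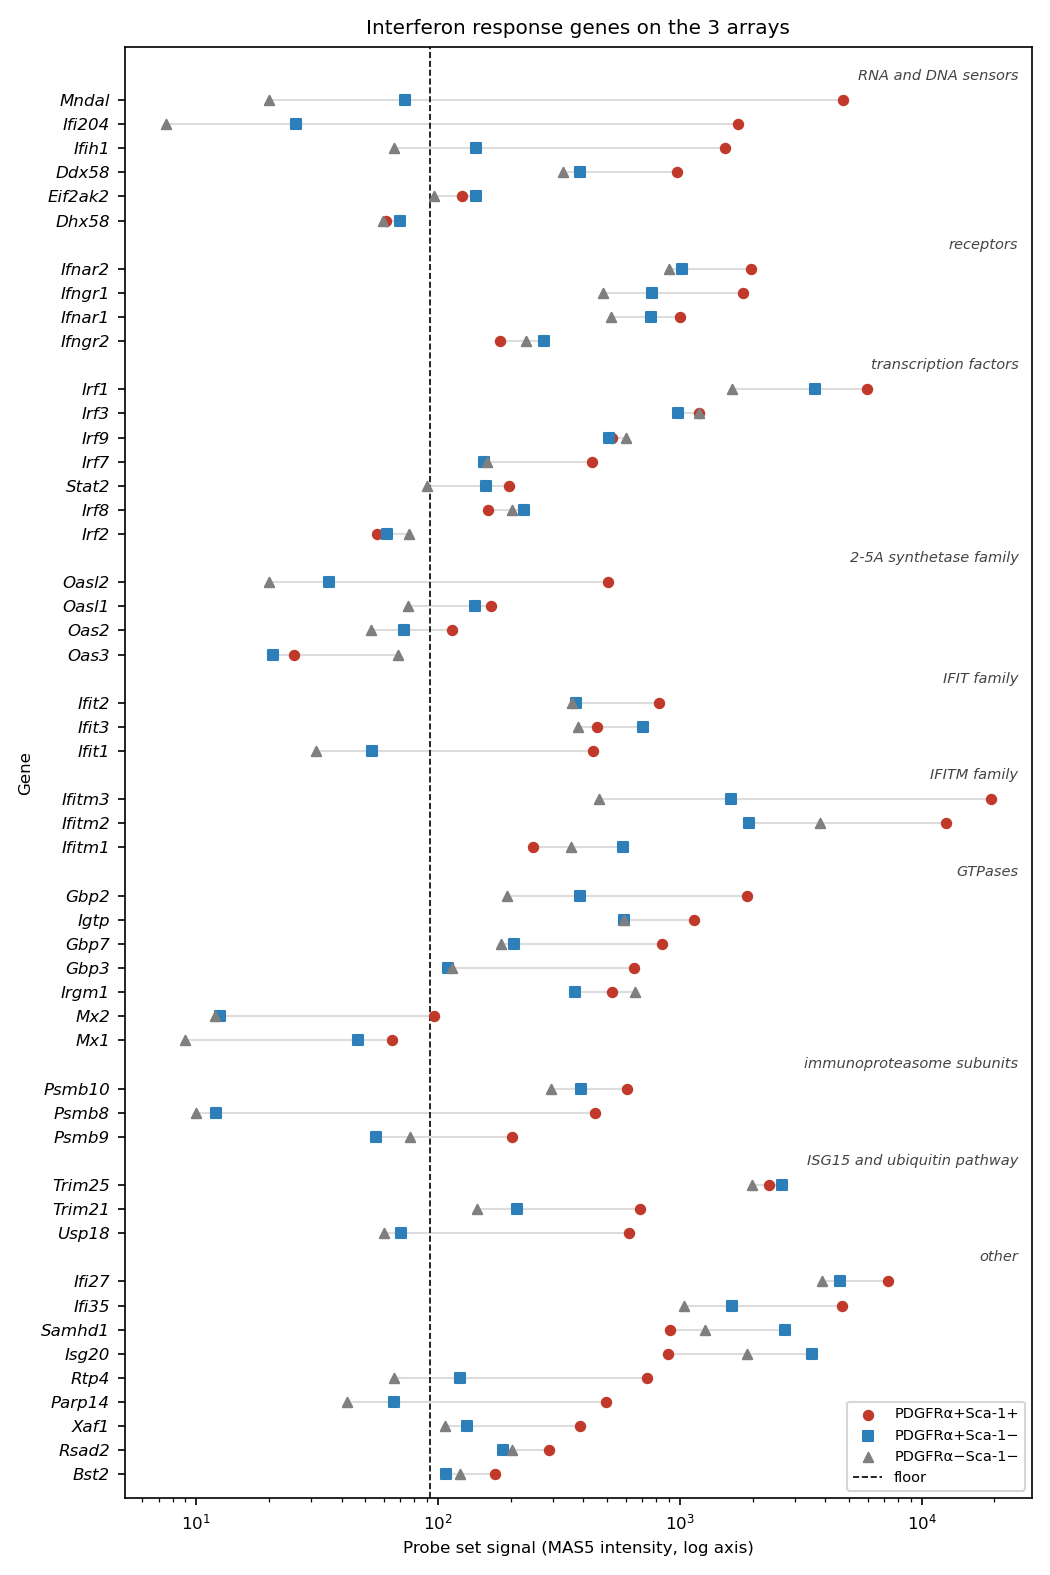
Signals of the 49 interferon response genes with a probe set of their own, on a log axis, grouped by role, with 1 point per array (circles double-positive, squares PDGFRα-only, triangles double-negative cells). The dashed line is the floor of 93.2, below which signals have no order. Circles lie furthest right for 35 of the 45 members above the floor.

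Set against PDGFRα-only cells, 22 of the 45 members compared were at least 2-fold higher in double-positive cells, 48.9% of the members beside 14.9% of all genes. Another 3 members, Isg20, Ifitm1 and, by its brightest probe set, Samhd1, were at least 2-fold lower, 6.67% beside 11.3% of all genes. The members' median log2 ratio was 0.96, and that of all 11855 genes compared was 0.07. Of the 22 members that were higher, 8 were under the floor in PDGFRα-only cells, so those members could enter only through their signal in double-positive cells. Against double-negative cells, 26 of 45 members were at least 2-fold higher in double-positive cells, beside 14.5% of all genes, and 1 was lower, beside 12.2%. Of those 26, 11 were under the floor in double-negative cells. The median log2 ratio there was 1.13 for the members and 0.03 for all genes. These comparisons share the double-positive array and are not separate results.

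Between the Sca-1-negative populations the members had smaller ratios. In PDGFRα-only cells 4 of 35 members compared were at least 2-fold higher than in double-negative cells, beside 4.82% of all genes. They were Ifitm3, Irf1, Gbp2 and Samhd1, the last by 4 of its 5 probe sets, and 0 members were lower, beside 5.63% of all genes. The members' median log2 ratio was 0.41, and that of all genes was -0.03. Gbp2 passed the threshold narrowly, at 2.01-fold.

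**Figure D2:**
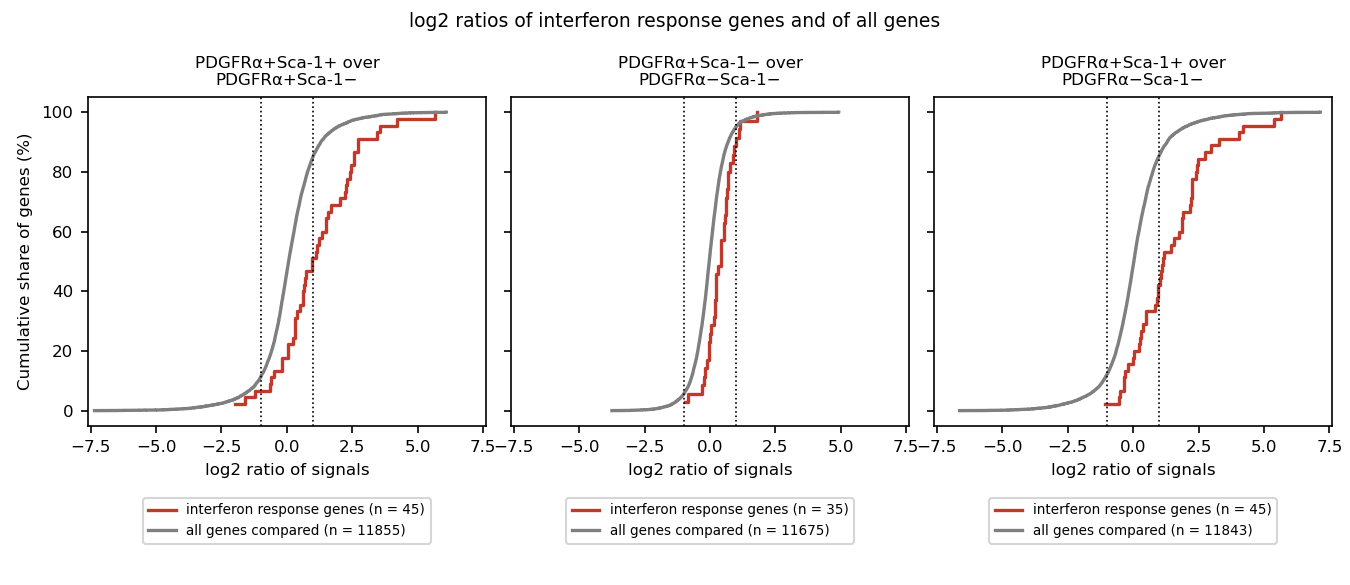
Cumulative share of genes (vertical axis, %) against the log2 ratio of signals (horizontal axis) for the members (red) and all genes compared (grey) in the 3 comparisons, with dotted lines at 2-fold. At its midpoint the red line lies to the right of the grey in each panel, with median log2 ratios of 0.96, 0.41 and 1.13 for the members from left to right.

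The sensors had the highest median log2 ratio of the roles, 3.43 for double-positive over PDGFRα-only cells, beside 0.96 for the whole set. With 5 sensors compared, this median is the value of 1 gene, Ifih1. The 2 genes above it, Mndal and Ifi204, could enter only through their signal in double-positive cells. RNA sensors of the RIG-I family recognise viral RNA in the cytoplasm, and members of the Ifi200 family bind DNA. In double-positive cells 4 of the 5 sensors compared were at least 2-fold above both other arrays, beside 10.6% of all genes, and 2 of the 4, Mndal and Ifi204, exceeded the floor only there.

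Ifih1, which encodes the long double-stranded RNA sensor MDA5, had a signal of 1543 in double-positive cells, 144 in PDGFRα-only cells and 65.6 in double-negative cells. It thus stood 10.8-fold above PDGFRα-only cells and at least 16.6-fold above double-negative cells, where it was under the floor. Ddx58, which encodes RIG-I, the sensor of RNA with a free triphosphate end, gave 977 in double-positive cells, 385 in PDGFRα-only cells and 328 in double-negative cells. It was above the floor in every population, and its lead was smaller, 2.54-fold and 2.98-fold. Another Ddx58 probe set, dimmer, was at least 1.61-fold higher in double-positive than in PDGFRα-only cells. Dhx58, the family member without a signalling domain, was under the floor on all 3 arrays. Eif2ak2, which encodes the RNA-activated kinase PKR, was close to the floor throughout, at 125 in double-positive cells, 144 in PDGFRα-only cells and 96.5 in double-negative cells, and stayed within 2-fold.

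Mndal and Ifi204 are neighbouring genes of the Ifi200 family on chromosome 1. Mndal gave 4745 in double-positive cells, 73.5 in PDGFRα-only cells and 20.1 in double-negative cells, at least 50.9-fold higher in the first. Ifi204 gave 1734 in double-positive cells, 25.9 in PDGFRα-only cells and 7.50 in double-negative cells, at least 18.6-fold higher. Both were under the floor in the Sca-1-negative populations and above it in double-positive cells. The family is made of near-identical copies, so its members may share signal: a probe set that carries the symbols of Mndal, Ifi204 and 2 more relatives read 2853 in double-positive cells, 92.4 in PDGFRα-only cells and 24.4 in double-negative cells. The second Mndal probe set was at least 32.4-fold higher in double-positive than in PDGFRα-only cells. The Mndal promoter is shown because this gene exceeded the floor only in double-positive cells. Promoter stretches here and further on come from the RefSeq promoter table (build GRCm38.p6), read 5′ to 3′ along the gene's strand, with the ISRE core, 2 copies of GAAA in the same direction with any 2 bases between them, in capitals.
Mndal, chr1:173880192-173880245, minus strand: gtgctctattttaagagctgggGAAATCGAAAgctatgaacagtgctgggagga
The core shown began 36 bases before this start. The table holds another Mndal start, with a core on the opposite strand 54 bases before it.

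Markers of macrophages, another cell type that expresses the Ifi200 family, were read beside these sensors. Of those with a probe set, 9 of 15 were under the floor on all 3 arrays, among them Itgam, Fcgr1, C1qa and Tyrobp, and the summed signal of the list was 1614 in double-positive cells, 3246 in PDGFRα-only cells and 2158 in double-negative cells. Most of the difference between these sums was Cd14, a lipopolysaccharide co-receptor, at 367 in double-positive cells, 1959.5 in PDGFRα-only cells and 1011 in double-negative cells. The lysozyme gene Lyz2 gave 353 in double-positive cells, 152 in PDGFRα-only cells and 134 in double-negative cells, and the part of such cells in the Ifi200 signals was not tested.

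The ligands that start the response gave almost no signal. Of 19 interferon genes listed, 10 had a probe set of their own, and only Ifnz exceeded the floor, at 167 in double-positive cells, 65.8 in PDGFRα-only cells and 129 in double-negative cells. Ifnb1, the type I interferon of fibroblasts, had signals of 53.0, 67.4 and 38.9 in the same order, and Ifng, which encodes interferon gamma, had 4.89, 2.20 and 10.7. Signals under the floor do not show that the transcripts were absent.

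All 4 receptor genes were above the floor in every population. Ifnar1 had a signal of 1003 in double-positive cells, 759.6 in PDGFRα-only cells and 519 in double-negative cells. Ifnar2, the other chain of the type I receptor, gave 1970.5 in double-positive cells, 1022 in PDGFRα-only cells and 901 in double-negative cells. Both chains had the same order of groups, but only the ratio of Ifnar2 over double-negative cells, 2.19-fold, passed the threshold. It was 1.93-fold over PDGFRα-only cells by the brightest probe set, and 2.46-fold and 1.71-fold by the other probe sets.

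The chains of the interferon gamma receptor went different ways. Ifngr1, the ligand-binding chain, had 1818 in double-positive cells, 770.0 in PDGFRα-only cells and 481 in double-negative cells, which was 2.36-fold and 3.78-fold higher in double-positive cells. Ifngr2, the signalling chain, had 181 in double-positive cells, 274 in PDGFRα-only cells and 231 in double-negative cells. It was lowest in double-positive cells, though within 2-fold of both others. On chromosome 16 the order of genes is Ifnar2, Il10rb, Ifnar1 and Ifngr2, and the neighbour Il10rb, a chain of the receptors for interleukin 10 and interferon lambda, was 2.43-fold higher in double-positive than in PDGFRα-only cells, at 1101 against 453. Ifnlr1, the other chain of the interferon lambda receptor, was under the floor in double-positive cells at 45.7 and gave 146 in PDGFRα-only cells and 116 in double-negative cells.

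Most transcription factors were within 2-fold between double-positive and PDGFRα-only cells. Of the 6 compared, 1 was higher in double-positive cells, 16.7% and near the 14.9% of all genes. Of the same 6, 0 were lower, beside 11.3% of all genes, and the median log2 ratio was 0.30. With 6 genes the 0 is not read as a difference from all genes. Over double-negative cells 3 of the 6 were higher in double-positive cells, beside 14.5% of all genes. Irf7, which amplifies the type I response, had a signal of 432 in double-positive cells, 155 in PDGFRα-only cells and 159.6 in double-negative cells. Double-positive cells stood 2.79-fold and 2.71-fold above the others. With the floor at the 67th percentile both ratios fell under 2-fold, to a bound of 0.76 on the log2 scale.

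Irf1, an activator of interferon gamma targets, had 5942 in double-positive cells, 3618 in PDGFRα-only cells and 1647 in double-negative cells. It passed the threshold for PDGFRα-only over double-negative cells, at 2.20-fold, and was within 2-fold for double-positive over PDGFRα-only cells, at 1.64-fold. Stat2 and Irf9 encode proteins that join with a further STAT to form the ISGF3 complex, which binds the ISRE. Stat2 had 197 in double-positive cells, 158 in PDGFRα-only cells and 90.1 in double-negative cells, where it was under the floor. Irf9 had 525 in double-positive cells, 509.7 in PDGFRα-only cells and 599 in double-negative cells, all within 2-fold. Irf3, the factor that the RNA sensors activate, was also within 2-fold, at 1203, 982 and 1200.4 in the same order. Irf8, a factor of myeloid cells, gave 160.4 in double-positive cells, 226 in PDGFRα-only cells and 203 in double-negative cells, so it was not brightest in double-positive cells. Irf2, which competes with Irf1, was under the floor on all 3 arrays.

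Of the 30 effectors compared, 16 were at least 2-fold higher in double-positive than in PDGFRα-only cells, 53.3% beside 14.9% of all genes. Another 3 were lower, 10% and near the 11.3% of all genes, with Samhd1 among them by its brightest probe set. The median log2 ratio of the 30 was 1.14. The families differed among themselves, as did the genes within them, so they are described in turn.

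The IFITM proteins sit in membranes and hinder the entry of viruses. Their genes, Ifitm2, Ifitm1 and Ifitm3, lie side by side on chromosome 7, and 2 of them were higher in double-positive cells while the other ran against the set. Ifitm3 had a signal of 19311 in double-positive cells, 1623 in PDGFRα-only cells and 463 in double-negative cells. It was 11.9-fold above PDGFRα-only cells, which in turn were 3.51-fold above double-negative cells, and it was 41.7-fold higher in double-positive than in double-negative cells. Ifitm2 had 12659.5 in double-positive cells, 1941 in PDGFRα-only cells and 3783 in double-negative cells, so double-positive cells were again highest, by 6.52-fold and 3.35-fold, with the Sca-1-negative groups in the opposite order. Ifitm1 had 247 in double-positive cells, 580.5 in PDGFRα-only cells and 357 in double-negative cells. It was 2.35-fold lower in double-positive than in PDGFRα-only cells.

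These neighbours had different orders of signal, so the 150 bases before each start are shown, with any ISRE core on either strand in capitals.
Ifitm2, chr7:140955962-140956111, minus strand: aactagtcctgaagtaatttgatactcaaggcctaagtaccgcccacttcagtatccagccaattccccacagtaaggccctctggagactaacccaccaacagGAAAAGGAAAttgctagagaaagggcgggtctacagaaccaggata
Ifitm1, chr7:140967926-140968075, plus strand: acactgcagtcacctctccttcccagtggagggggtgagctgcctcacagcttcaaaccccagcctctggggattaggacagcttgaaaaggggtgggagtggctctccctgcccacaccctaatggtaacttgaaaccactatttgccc
Ifitm3, chr7:141010745-141010894, minus strand: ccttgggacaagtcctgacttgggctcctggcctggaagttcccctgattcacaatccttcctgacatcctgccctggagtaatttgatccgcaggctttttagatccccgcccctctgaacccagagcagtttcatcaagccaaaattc
The core was present in the Ifitm2 stretch, its first base 46 bases before the start, and was found neither in that of Ifitm1, the member lower in double-positive cells, nor in that of Ifitm3, which was higher in them. The absence of a match says only that these letters were not in the window.

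Among the GTPases, the guanylate-binding proteins coat and disrupt the compartments of intracellular pathogens. All 3 in the set were highest in double-positive cells. Gbp2 had a signal of 1894 in double-positive cells, 387 in PDGFRα-only cells and 192 in double-negative cells. Gbp3 had 645 in double-positive cells, 110.4 in PDGFRα-only cells and 115 in double-negative cells. Gbp7 had 844 in double-positive cells, 207 in PDGFRα-only cells and 182 in double-negative cells. The double-positive cells thus led PDGFRα-only cells by 4.89-fold for Gbp2, 5.84-fold for Gbp3 and 4.07-fold for Gbp7. The second probe sets of Gbp2 and Gbp7 gave 3.71-fold and at least 4.38-fold. Guanylate-binding protein genes are close copies, so some of this signal may be shared.

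The 3 genes lie within a run of 4 genes on chromosome 3, and each had the ISRE core in its upstream window. Here the core lies on the opposite strand, so on the gene's strand it reads as 2 copies of TTTC.
Gbp7, chr3:142530261-142530314, plus strand: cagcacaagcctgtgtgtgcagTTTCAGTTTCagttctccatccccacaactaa
Gbp3, chr3:142559977-142560036, plus strand: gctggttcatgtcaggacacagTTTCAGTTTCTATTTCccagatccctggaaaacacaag
Gbp2, chr3:142620582-142620635, plus strand: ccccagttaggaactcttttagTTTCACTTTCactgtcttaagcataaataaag
The first base of the match lay 53, 45 and 59 bases before the start in Gbp7, Gbp3 and Gbp2. All 3 also held the longer form, in which CT follows the core directly and which was present before 0.255% of all genes with a promoter entry.

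The other GTPases were less uniform. Igtp, an immunity-related GTPase that acts on the vacuoles of intracellular parasites, had 1146 in double-positive cells, 588 in PDGFRα-only cells and 586 in double-negative cells, just short of the threshold at 1.95-fold and 1.96-fold. Irgm1, a regulator of that family, had 527 in double-positive cells, 369 in PDGFRα-only cells and 655 in double-negative cells, within 2-fold. Mx1 was under the floor on all 3 arrays, and Mx2 reached 96.0 in double-positive cells alone. The MX genes therefore gave almost no signal in any population, and the reason was not tested.

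The IFIT proteins bind viral RNA that lacks the host's cap marks. Ifit1 had a signal of 439 in double-positive cells, 53.7 in PDGFRα-only cells and 31.4 in double-negative cells, at least 4.71-fold higher in the first. Ifit2 had 824 in double-positive cells, 371 in PDGFRα-only cells and 360.2 in double-negative cells, which was 2.22-fold and 2.29-fold higher. Ifit3 had 454 in double-positive cells, 708 in PDGFRα-only cells and 379 in double-negative cells, within 2-fold and highest in PDGFRα-only cells. Ifit1 and Ifit3 are in the same cluster on chromosome 19 and differed in order, and both stretches below hold 2 copies of the ISRE core on the opposite strand.
Ifit1, chr19:34640763-34640835, plus strand: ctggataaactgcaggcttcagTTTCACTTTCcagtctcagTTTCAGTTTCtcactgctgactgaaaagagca
Ifit3, chr19:34583351-34583438, plus strand: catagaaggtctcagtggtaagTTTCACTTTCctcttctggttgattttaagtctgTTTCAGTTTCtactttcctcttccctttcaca
The copies began 104 bases before the start in Ifit1 and 156 bases in Ifit3, counted from the farther copy. These 2 genes thus shared the element and differed in the order of their signals.

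Oligoadenylate synthetases respond to double-stranded RNA by making a messenger that activates an RNA-cutting enzyme, and the OASL proteins are their relatives. Oasl2 had 507 in double-positive cells, 35.4 in PDGFRα-only cells and 20.003 in double-negative cells, at least 5.45-fold higher in double-positive cells. Its neighbour on chromosome 5, Oasl1, had 167 in double-positive cells, 142 in PDGFRα-only cells and 75.2 in double-negative cells. Oas2 exceeded the floor only in double-positive cells, at 114, and Oas3 was under it on all 3 arrays. Of the members in this family Oasl2 alone was past 2-fold. Oas2, and Oasl1 over double-negative cells, have bounds under 2-fold that do not limit how far they differ. Outside the member list, Oas1a had 422 in double-positive cells, 90.5 in PDGFRα-only cells and 140 in double-negative cells. It was at least 4.53-fold higher in double-positive than in PDGFRα-only cells and 3.02-fold higher than in double-negative cells. Oas1b, Oas1c and Oas1f were under the floor on all 3 arrays.

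The immunoproteasome subunits replace the constitutive ones and shape the peptides shown by MHC class I molecules. Psmb8 had 446 in double-positive cells, 12.1 in PDGFRα-only cells and 10.0 in double-negative cells. Psmb9 had 202 in double-positive cells, 55.6 in PDGFRα-only cells and 77.0 in double-negative cells. Both passed the floor in double-positive cells only, at least 4.78-fold higher for Psmb8 and at least 2.17-fold for Psmb9. Psmb10 had 602 in double-positive cells, 391 in PDGFRα-only cells and 293 in double-negative cells, 1.54-fold and 2.06-fold higher. Tap1, a peptide transporter gene that lies between Psmb9 and Psmb8 on chromosome 17, did not share their order, with 255 in double-positive cells, 142 in PDGFRα-only cells and 263 in double-negative cells.

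ISG15 is a ubiquitin-like protein that is joined to other proteins during the response, and USP18 removes it and damps the type I receptor. Usp18 had 619 in double-positive cells, 70.4 in PDGFRα-only cells and 59.9 in double-negative cells, at least 6.65-fold higher in double-positive cells. The probe set shared by Isg15 and Gm9706 did not move with it, at 146 in double-positive cells, 156 in PDGFRα-only cells and 93.0 in double-negative cells, and entered no count. Trim21, a ubiquitin ligase that binds antibody inside cells, had 685 in double-positive cells, 212 in PDGFRα-only cells and 145 in double-negative cells. Its lead over PDGFRα-only cells was 3.23-fold by this probe set, but the other, dimmer one read 140.1 in double-positive cells and 139.9 in PDGFRα-only cells, so the Trim21 difference rests on 1 probe set. Trim25, the ligase that acts on RIG-I, had 2339 in double-positive cells, 2641 in PDGFRα-only cells and 1988 in double-negative cells. It was within 2-fold by this brightest probe set, and another was 1.20-fold lower in double-positive than in PDGFRα-only cells. The dimmest Trim25 probe set read 85.6 in double-positive cells, 356 in PDGFRα-only cells and 149 in double-negative cells. By that one Trim25 was at least 3.82-fold lower in double-positive than in PDGFRα-only cells.

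Of the 9 remaining effectors with a probe set, 4 were at least 2-fold higher in double-positive than in PDGFRα-only cells, beside 14.9% of all genes, and 2 lower, beside 11.3%. Rtp4, a regulator of RNA sensing, had 730.1 in double-positive cells, 124 in PDGFRα-only cells and 65.9 in double-negative cells, 5.91-fold above PDGFRα-only cells. Parp14, an ADP-ribosyltransferase, had 494 in double-positive cells, 65.6 in PDGFRα-only cells and 42.0 in double-negative cells, at least 5.30-fold higher in the first. Ifi35, an interferon-induced regulator of innate signalling, had 4689.5 in double-positive cells, 1643 in PDGFRα-only cells and 1037 in double-negative cells. All 3 Ifi35 probe sets were higher in double-positive than in PDGFRα-only cells, by 2.85-fold, 2.76-fold and 1.76-fold. Xaf1, which favours cell death, had 389 in double-positive cells, 133 in PDGFRα-only cells and 107 in double-negative cells, with the Sca-1-negative populations close to the floor.

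Isg20 ran against the set, and Samhd1 did so by some of its probe sets. Isg20 had 894 in double-positive cells, 3534 in PDGFRα-only cells and 1903 in double-negative cells, 3.96-fold and 2.13-fold lower in double-positive cells. Samhd1, whose enzyme lowers the supply of DNA building blocks, had 908 in double-positive cells, 2721 in PDGFRα-only cells and 1277 in double-negative cells by its brightest probe set, which was 2.996-fold lower than in PDGFRα-only cells. Its 5 probe sets did not share a direction. Another gave 1378 in double-positive cells, 319.7 in PDGFRα-only cells and 136 in double-negative cells, 4.31-fold higher than in PDGFRα-only cells, so no direction is given for Samhd1. Ifi27, Rsad2 and Bst2, the last a tether that holds budding virus on the cell, were within 2-fold in every comparison. Ifi27, which encodes a mitochondrial protein, had 7270.1 in double-positive cells, 4589.9 in PDGFRα-only cells and 3867 in double-negative cells. The highest signals of Rsad2 and Bst2, 288 and 173, were both in double-positive cells.

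**Figure D3:**
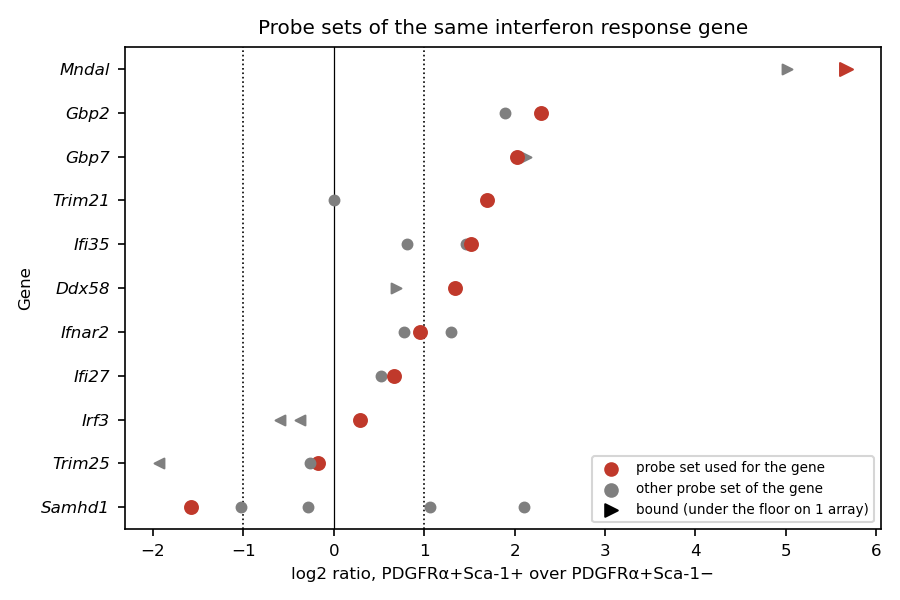
log2 ratios of double-positive over PDGFRα-only cells (horizontal axis) for each probe set of the 11 members with more than 1 probe set compared. Red marks the probe set used for the gene, arrowheads mark bounds and point the way the true ratio may exceed them, and dotted lines mark 2-fold. Of 7 members past 2-fold, 6 had all probe sets on the same side of 0, Trim21 by the narrowest margin, and the Samhd1 probe sets fell on both sides.

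Different probe sets of a gene are the only repeated measurement on these arrays. Over all genes, the SD of the log2 ratio between probe sets of the same gene was 0.60 for double-positive over PDGFRα-only cells (4300 genes), 0.37 for PDGFRα-only over double-negative cells and 0.50 for double-positive over double-negative cells. It covers scatter between probes, not between mice or arrays.

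ISRE and GAS patterns were more frequent before the members than before all genes. The list holds genes known to answer interferon, which acts through these elements. The higher shares therefore describe the list and not these arrays. RefSeq promoters were matched by symbol for 42 of the 51 members, and the 250 bases before each start were searched on both strands for 5 patterns. The ISRE core was present for 15 of the 42 members, 35.7%, beside 3.46% of 27025 genes in the table. The core followed by CT was present for 7 members, 16.7%, beside 0.255% of genes. The GAS pattern TTCNNNGAA, which reads the same on both strands, was present for 12 members, 28.6%, beside 8.13% of genes. Its variants, TTCNNGGAA and the GAS pattern with T before it and A after it, were present for 11 and 5 members, beside 4.74% and 0.762% of genes. Matches of a longer pattern are among those of the shorter one, and a match is a description of the letters, not of a bound factor.

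Within the set, the motifs were counted apart for members that were higher in double-positive cells and members that were not. The ISRE core was present for 6 of the 18 matched members that were at least 2-fold higher in double-positive than in PDGFRα-only cells, namely Ifit1, Ifitm2, Mndal, Gbp2, Gbp3 and Gbp7. It was present for 6 of the 20 matched members that were compared and not higher, namely Ifit3, Irgm1, Igtp, Stat2, Rsad2 and Bst2. The GAS pattern was present for 3 of the 18 higher members, 16.7%, and for 8 of the 20 others, 40.0%. These shares were not tested. The stretches of Igtp and Irgm1, both within 2-fold, are shown for comparison with those above.
Igtp, chr11:58199500-58199553, plus strand: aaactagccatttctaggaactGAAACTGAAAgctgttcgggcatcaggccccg
Irgm1, chr11:48871421-48871472, minus strand: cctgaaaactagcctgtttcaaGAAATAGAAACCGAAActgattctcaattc
The core began 34 bases before the start in Igtp, and the farther of 2 overlapping copies began 30 bases before it in Irgm1.

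Other genes of the pathway, from lists of known interferon biology, were read from the same arrays. Of 45 more interferon-stimulated genes, 23 were higher by 2-fold or more in double-positive than in PDGFRα-only cells, 51.1% beside 14.9% of all genes, and 1 was lower, beside 11.3%, with a median log2 ratio of 1.01. Of the 23, 8 were under the floor in PDGFRα-only cells. Ly6e, a surface protein that blocks viral fusion, had 5176 in double-positive cells, 446 in PDGFRα-only cells and 508 in double-negative cells. Ifi27l2a had 989.8 in double-positive cells, 7.11 in PDGFRα-only cells and 8.20 in double-negative cells, at least 10.6-fold higher in double-positive cells. Phf11d and Gbp6 followed at 5.89-fold and 5.41-fold over PDGFRα-only cells. Nlrc5, an activator of MHC class I genes, was the one that was lower, at 95.3 in double-positive cells, 216 in PDGFRα-only cells and 539 in double-negative cells. Between PDGFRα-only and double-negative cells, 1 of 34 such genes was higher and 2 were lower, near the 4.82% and 5.63% of all genes.

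Signalling genes had mostly small ratios, as did all genes compared. Of 14 kinases, STATs, other IRFs and feedback genes, 12 were within 2-fold between double-positive and PDGFRα-only cells, beside 8752 of all 11855 genes. Il10rb was higher, 7.14% beside 14.9% of all genes. Irf2bp2 was lower, by 3.15-fold, 7.14% beside 11.3% of all genes. The median log2 ratio was -0.10, and that of all genes was 0.07. Jak1, a kinase of both receptor types, had 3756 in double-positive cells, 4105 in PDGFRα-only cells and 2997 in double-negative cells. The feedback gene Socs1 had 119 in double-positive cells, 127 in PDGFRα-only cells and 255 in double-negative cells, where it was brightest.

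Of 11 adaptors, kinases and Toll-like receptors of nucleic acid sensing, 2 were higher in double-positive than in PDGFRα-only cells, Cgas and Ikbke, and Tlr9 was lower. The 2 make 18.2%, near the 14.9% of all genes, and the 1 that was lower makes 9.09%, near the 11.3%. Cgas, which encodes the sensor of cytoplasmic DNA, had 655 in double-positive cells, 174 in PDGFRα-only cells and 173 in double-negative cells. Tlr3, a receptor for double-stranded RNA, had 661 in double-positive cells, 358 in PDGFRα-only cells and 123 in double-negative cells, within 2-fold for double-positive over PDGFRα-only cells and 2.91-fold higher in PDGFRα-only than in double-negative cells. Mavs, the adaptor of the RNA sensors, was within 2-fold, at 364, 339 and 295 in the same order. Of 8 antigen processing genes, 1 was higher in double-positive than in PDGFRα-only cells, Psme1 at 2.26-fold, which is 12.5% and near the 14.9% of all genes. B2m, the light chain of MHC class I, had signals of 12298 in double-positive cells, 9047 in PDGFRα-only cells and 4602 in double-negative cells.

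**Figure D4:**
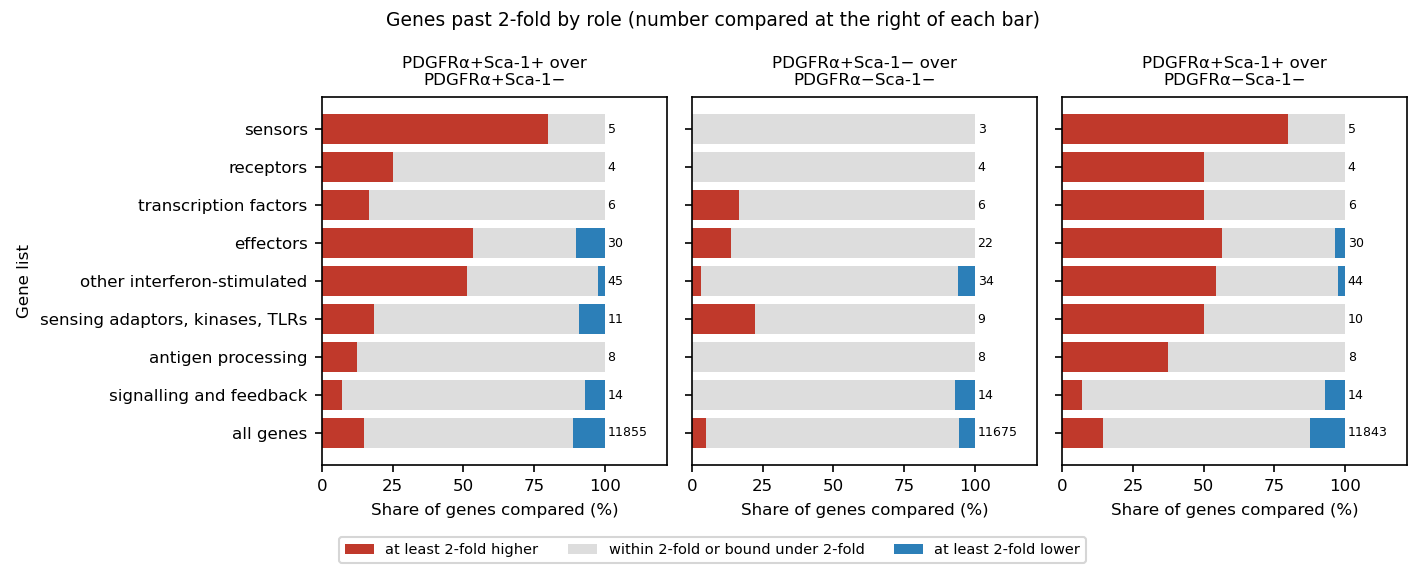
Share of genes compared (horizontal axis, %) that were at least 2-fold higher (red), within 2-fold or with a bound under 2-fold (grey) or at least 2-fold lower (blue) in each comparison, for the members by role, for the other pathway lists and for all genes, with the number compared beside each bar. Sensors, effectors and other interferon-stimulated genes have red shares of 80.0%, 53.3% and 51.1% in the left panel, beside 14.9% for all genes.

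Markers of other cells that respond to interferon or make it were read beside these results. All 8 lymphoid markers with a probe set were under the floor on all 3 arrays, and so was Siglech, a marker of plasmacytoid dendritic cells, the main makers of type I interferon. Of 9 neutrophil genes, all 9 were above the floor in double-positive cells and in PDGFRα-only cells and 2 in double-negative cells, with summed signals of 3282, 3218 and 676 in that order. Of these genes, Lcn2, whose protein binds bacterial iron carriers, was past 2-fold between the PDGFRα+ populations, at 533 in double-positive cells and 102 in PDGFRα-only cells, and the other 8 were within 2-fold. The 7 dendritic cell markers summed to 383 in double-positive cells, 663 in PDGFRα-only cells and 706 in double-negative cells. Of the 7, 5 were under the floor on all 3 arrays, and most of each sum was Zbtb46, at 304, 377 and 494 in that order. Endothelial markers summed to 1273 in double-positive cells, 536 in PDGFRα-only cells and 394 in double-negative cells, and 6 of 10 were under the floor on all 3 arrays, Pecam1 and Cdh5 among them. Most of the double-positive sum was Tek, an angiopoietin receptor, at 888, and its part in the results was not tested. Erythroid markers summed to 1330.2 in double-positive cells, 2279.8 in PDGFRα-only cells and 7376 in double-negative cells. Most of each sum was Tfrc, the transferrin receptor gene, at 1063, 1752 and 6574 in that order. Hemgn gave 53.8, 138 and 360 and Klf1 gave 59.7, 96.2 and 192, both under the floor in double-positive cells. Epor and Slc4a1 were brightest in PDGFRα-only cells, and Alas2 and Rhag were under the floor on all 3 arrays. The part of erythroid cells in the results was not tested. Of 9 fibroblast and adventitial markers, 7 were at least 2-fold higher in double-positive than in PDGFRα-only cells, beside 14.9% of all genes. Pdgfra, used for the sort, was among them. All 9 markers were above the floor in double-positive cells, 6 in PDGFRα-only cells and 5 in double-negative cells. Summed, the 9 gave 129620 in double-positive cells, 63208 in PDGFRα-only cells and 46468 in double-negative cells. Most of both Sca-1-negative sums was Dcn and Lum, which were within 2-fold. Dcn gave 34207 in double-positive and 33977 in PDGFRα-only cells, and Lum gave 22199 and 23896. A difference in the kind of cell and a difference in the interferon response of like cells cannot be told apart here.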

How the data were processed

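Total RNA of 3 sorted populations, 1 sample each, was labelled by the Affymetrix two-cycle assay, per the labels' protocols. The authors deposited 1 linear intensity for each probe set, made with MAS5 per the submitters' processing notes. No version of it is given in these sources, and no detection calls were used. The deposited arrays had a common 2% trimmed mean of 500, and signals reached 42073.9.

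Here, 64 control probe sets were set aside, arrays were rescaled to a common 2% trimmed mean over 45037 probe sets, and signals under a floor of 93.2 were raised to it before log2. Platform symbols named 34945 probe sets singly, and the 932 with several symbols entered no count. Each of 18193 genes was read by the probe set brightest on the mean log2 scale, so comparisons across genes are descriptions only. The counting was tested on simulated data, with changes put only into genes far above the floor. The simulated scatter was smaller than that between probe sets. This test therefore covers neither bounds at the floor nor the reliability of the 2-fold calls. The members, lists and motifs were chosen with earlier results of these data known. Every member is accounted for, and from each pathway list up to 4 genes with the largest ratios were eligible to be named. Others named (the Oas1 genes, Tap1, Ifnlr1, Jak1, Mavs, Lyz2, Dcn, Lum and the ligands) were chosen after their values were seen. Ifi203, Ifi202b, Zbtb46 and the erythroid genes besides Tfrc were also named after their values were seen. The number of arrays, the floor and the scatter between probe sets limit the precision. Python 3.11.15, NumPy 2.4.6, pandas 2.3.3 and SciPy 1.17.1 were used. Alternatives changed the floor, the scaling, the probe set rule and the threshold.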

Additional observations from a re-analysis of the deposited data

How the results depend on the processing

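The counts of members past 2-fold and the members' medians kept their direction under other floors (the 33rd and 67th percentile), other scalings and the mean over probe sets. With a 3-fold threshold, 1 member was higher in PDGFRα-only than in double-negative cells, 1 was lower in double-positive than in PDGFRα-only cells and 0 were lower in double-positive than in double-negative cells. With a 1.5-fold threshold the counts were 12 higher and 2 lower in PDGFRα-only than in double-negative cells and 5 lower in double-positive than in PDGFRα-only cells. The threshold itself sets these counts. Over probe sets, the Samhd1 mean log2 ratio of double-positive over PDGFRα-only was 0.0565, against -1.58 by its brightest probe set. Over all genes, 563 were higher and 657 lower in PDGFRα-only than in double-negative cells, against 365 and 388 with the floor at the 67th percentile and 369 and 408 with the mean over probe sets. For double-positive over PDGFRα-only cells, 841 genes were higher and 693 lower by 3-fold and 3149 and 2379 by 1.5-fold, against 1763 and 1340 at 2-fold. Over double-negative cells the double-positive counts were 846 and 714 at 3-fold and 2941 and 2594 at 1.5-fold, against 1713 and 1443. For PDGFRα-only over double-negative cells they were 202 and 190 at 3-fold and 1471 and 1774 at 1.5-fold. Of the 22 members higher in double-positive than in PDGFRα-only cells, 14 stayed past 2-fold in every setting that gave a value. With the floor at the 67th percentile Ifit1, Irf7, Oasl2, Parp14, Psmb8 and Xaf1 fell under 2-fold and Psmb9 gave no value, and with the mean over probe sets Ddx58, Trim21 and Xaf1 fell under it. Leaving out probe sets whose names end in _x_at or _s_at, which can match several transcripts, was chosen after seeing the data. No paired analysis was possible because each group had 1 array. Signals near the floor and single arrays limit what can be read.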
